A study of Mus musculus with 6 samples.

Results

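The open chromatin described here lies at 3 genes that encode transcription factors of effector T cell fate, Irf4, Prdm1 and Bcl6, in regulatory T cells (Treg cells) of the mouse. The assay was ATAC-seq, which reads out open DNA as the places where a transposase could cut and tag it. A peak belonged to one of the 3 genes if its midpoint lay in the gene body, or lay between genes with that gene as the nearest protein-coding gene within 100 kb (RefSeq, mm10). By this rule 18 of the 36182 peaks of the knockout list and 21 of the 38258 peaks of the wild-type list were members. The 6 samples, all C57BL/6, formed 2 groups of 3: Bcl11b f/f Foxp3-IRES-YFP-Cre (KO) and Bcl11b w/w Foxp3-IRES-YFP-Cre (WT). Cre recombinase was expressed from the Foxp3 locus in both groups, so each carries the reporter allele, and CD4+ YFP+ cells were sorted from spleen and draining lymph nodes. The labels do not give age, sex, how many animals stood behind a sample, or which part of Bcl11b was deleted, and no peak here checks the deletion.

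Each group had 1 peak list for its 3 samples, with no read counts. Depth per sample is therefore unknown, and the comparisons below have no replicate check and no p-value. Peaks are called shared where those of the other list overlapped them by at least 1 bp, and KO-only or WT-only otherwise. The call is missing in one list, and the site may still have been open below the calling limit. In sorted bulk cells, fewer cells with an open site and less opening per cell cannot be told apart. All 6 Treg markers looked up (Foxp3, Il2ra, Ctla4, Ikzf2, Tnfrsf18 and Ikzf4) and all 8 T cell markers had peaks. Of 8 B cell markers, 5 had peaks (7 KO-only, 8 shared and 3 WT-only), and Cd79a and Ms4a1 were among those with 0. This matters because IRF4, Blimp-1 and BCL6 also act in B and plasma cells. Other marker lists were partly covered: 4 of 8 myeloid markers had peaks (4 KO-only and 3 WT-only; Cd68, Mpo, Adgre1 and Csf1r had 0), 5 of 6 natural killer markers (8 and 4; Ncr1 had 0), 4 of 6 erythroid and megakaryocyte markers (1 and 3) and 1 of 2 CD8 T cell markers (0 and 1). The part of such cells in the counts below was not tested.

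IRF4 is a transcription factor that T cell receptor signalling induces, and it binds DNA together with BATF and AP-1 proteins at composite elements. In Treg cells it is known for effector differentiation and for Treg control of type 2 helper responses. Prdm1 encodes Blimp-1, a zinc-finger repressor downstream of IRF4 that marks IL-10-producing effector Treg cells. Bcl6 encodes a BTB-POZ zinc-finger repressor of follicular T cells, and Blimp-1 and BCL6 repress each other.

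The sequences that the peaks touch at the starts of these genes are shown first, because all 3 main starts carried peaks in both lists. Each is the RefSeq window (GRCm38.p6) of 250 bases before and 50 bases after a transcription start, 5′ to 3′ on the gene's strand, with capitals for the bases covered by a KO peak and by a WT peak. The windows are chr13:30748983-30749282 (plus strand) for Irf4, chr10:44458699-44458998 (minus strand) for Prdm1 and chr16:23988803-23989102 (minus strand) for Bcl6.
Irf4: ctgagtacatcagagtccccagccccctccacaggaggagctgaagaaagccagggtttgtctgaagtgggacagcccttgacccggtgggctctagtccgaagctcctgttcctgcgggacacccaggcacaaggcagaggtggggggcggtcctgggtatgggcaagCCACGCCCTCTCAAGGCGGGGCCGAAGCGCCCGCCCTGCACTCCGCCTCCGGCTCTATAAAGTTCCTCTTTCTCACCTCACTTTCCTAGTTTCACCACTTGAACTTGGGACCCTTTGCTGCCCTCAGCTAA
Prdm1: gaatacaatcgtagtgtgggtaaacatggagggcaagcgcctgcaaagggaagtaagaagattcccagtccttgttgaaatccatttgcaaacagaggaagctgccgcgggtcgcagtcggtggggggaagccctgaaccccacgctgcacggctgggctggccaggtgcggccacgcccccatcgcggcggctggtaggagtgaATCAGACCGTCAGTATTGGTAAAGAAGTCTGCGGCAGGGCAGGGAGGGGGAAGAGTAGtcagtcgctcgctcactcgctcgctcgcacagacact
Bcl6: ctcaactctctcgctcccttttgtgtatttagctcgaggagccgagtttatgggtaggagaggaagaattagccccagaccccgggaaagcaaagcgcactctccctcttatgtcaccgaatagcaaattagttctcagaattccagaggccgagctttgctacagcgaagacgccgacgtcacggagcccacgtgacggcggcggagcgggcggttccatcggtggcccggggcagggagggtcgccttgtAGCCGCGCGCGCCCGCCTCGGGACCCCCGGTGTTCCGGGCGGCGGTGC

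At Irf4 the KO peak covered 131 and the WT peak 163 of the 300 bases, and 131 bases, from 81 bases before the start to the end of the window, lay in both. At Prdm1 the numbers were 95 and 219, with 58 bases in both, since the KO peak reached into the transcribed side and the WT peak lay over the upstream side. At Bcl6 they were 48 and 69, with 48 in both, all after the start. Among all 32851 RefSeq windows of this kind, 29.8% had a KO peak, 30.2% a WT peak and 27.5% both, so an open start was a common state. The windows of Irf4, Prdm1 and Bcl6 held 11, 20 and 31 CpG dinucleotides, where the median was 7 over all windows and 23 over those open in both lists.

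The windows were searched on both strands for 17 motifs. These were TGANTCA for AP-1, GAAA with GAAA 2 bases on for the interferon-stimulated response element, and GGAA with GAAA 2 bases on for the ETS-IRF element. For the AP-1-IRF element they were TTTC with TGANTCA 2 bases on, or TGANTCA with GAAA 4 bases on. AGTGAAA stood for Blimp-1, TTCNNNGAA for the palindrome of BCL6 and STAT factors, and TTCCTAGAA for the BCL6 core. The others were TGTGGTT for RUNX, CCGGAAG or CAGGAAG for ETS, CAGCTG or CACCTG for E-boxes, TGTTTAC for forkhead factors, CTTTGAT for TCF1, TGGAAA for NFAT, GGGANNNCC for NF-kB, GGGCGGG for KLF, AGATAA for GATA and CCACNAGG for CTCF. Some of these strings can overlap one another. The Prdm1 window held an AP-1 string, TGAATCA, 48 bases before the start. Its last 4 bases fall in the stretch shared by both peaks, and 7.81% of all windows hold such a string. Further upstream, inside the WT peak alone, it held an E-box string (32.9%) and an NF-kB string (18.6%), 87 and 125 bases before the start. Outside both peaks it held a forkhead string (3.65%), 231 bases before the start. The Irf4 window held the KLF string (25.6% of windows) 52 bases before the start, inside both peaks, and 2 NF-kB strings (18.6%) outside both peaks. The Bcl6 window held 1 palindrome, TTCTCAGAA, 118 bases before the start and outside both peaks, in common with 8.3% of windows, and an NF-kB string 22 bases after the start inside both peaks. Among the 9020 windows open in both lists, as these 3 are, the shares differed. They were 51.1% for KLF, 27.8% for E-boxes, 24.1% for NF-kB, 6.64% for the palindrome, 4.2% for AP-1 and 2.35% for forkhead strings. None of the windows of these 3 main starts held the Blimp-1 string, the response element or either composite element as spelled here, which says nothing about the factors.

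A second Bcl6 start in the same table, at 23981283 on chromosome 16 inside the gene, is shown because its window held 3 palindromes of the BCL6 and STAT kind and no peak of either list. The capitals mark the palindromes in chr16:23981234-23981533 (minus strand).
Bcl6 second start: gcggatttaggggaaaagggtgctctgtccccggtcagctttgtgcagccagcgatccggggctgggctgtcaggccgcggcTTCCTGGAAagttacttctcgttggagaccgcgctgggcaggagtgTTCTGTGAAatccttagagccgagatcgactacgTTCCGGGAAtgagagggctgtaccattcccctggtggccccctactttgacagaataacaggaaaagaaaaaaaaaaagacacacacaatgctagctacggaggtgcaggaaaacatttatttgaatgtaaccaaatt

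Of all windows, 11 (0.0335%) held 3 or more such palindromes. This window also held the ETS-IRF string 28 bases before the start (2.72% of windows), a CTCF string 59 bases before it (4.99%), and ETS (20.9%) and NFAT (21.4%) strings that overlap the first palindrome, 169 and 164 bases before it. The window was picked out after its content was seen. The nearest peaks, a shared pair, began 935 bp from the window in the KO list and 926 bp from it in the WT list.

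Most peaks at the 3 genes were called in both genotypes. Of the KO peaks 14 of 18 were shared (77.8%, exact Clopper-Pearson 95% interval 52.4 to 93.6%), and of the WT peaks 14 of 21 (66.7%, 43.0 to 85.4%). The 4 KO-only and 7 WT-only peaks compare with 25.4% KO-only among all KO peaks and 29.5% WT-only among all WT peaks, and the members' shares lie near those backgrounds with intervals that include them. These intervals hold counting error alone, and peaks of 1 gene share their neighbourhood. By location, 0 of 4 KO peaks at gene ends were KO-only, 1 of 6 in gene bodies and 3 of 8 between genes, where all KO peaks gave 14.2%, 29.8% and 30.7%. WT-only were 0 of 3, 2 of 7 and 5 of 11, where all WT peaks gave 13.6%, 35.6% and 35.7%. Gene ends here are within 1 kb of either end of the annotated gene, and the listed Prdm1 start counts as gene body. Prdm1 had 2 KO-only, 5 shared and 4 WT-only peaks, Irf4 had 1, 5 and 1, and Bcl6 had 1, 4 and 2. These genes were well supplied with peaks: genes with any peak had a median of 2 in each list, 5.84% of them had at least as many KO peaks as Prdm1 and 3.74% at least as many WT peaks. For Irf4 the shares were 8.36% and 9.38%, and for Bcl6 12.1% and 9.38%. These shares were not matched for gene length or for the ground between genes that the rule takes in. Prdm1 is 91.4 kb long, and longer genes with distant neighbours can collect more peaks.

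**Figure D1:**
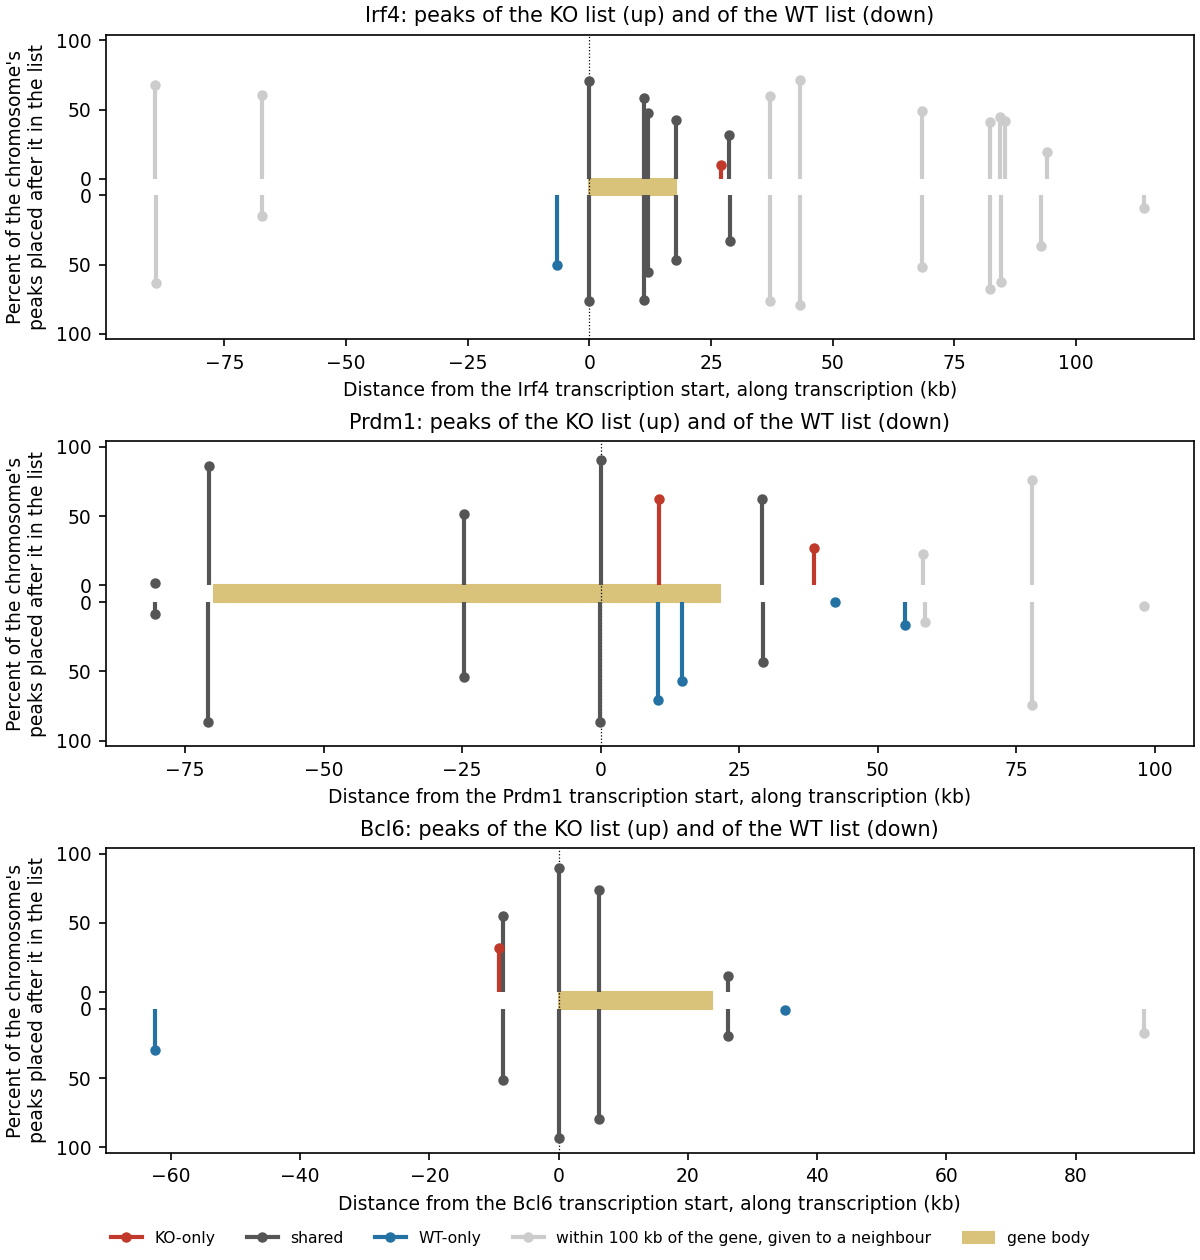
Peaks at Irf4, Prdm1 and Bcl6 by distance from the transcription start (x axis, kb, positive along transcription), with KO peaks drawn up and WT peaks down. The height of a line is the percent of that chromosome's peaks placed after it in the list, so a tall line is an early row. Dark grey lines are shared peaks, red and blue lines the 4 KO-only and 7 WT-only peaks, pale lines peaks within 100 kb given to a neighbouring gene, and the yellow bar the gene. The starts of all 3 genes carry dark grey lines in both lists.

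The score deposited with every peak is 1, so the only order of peaks is that of the rows. The place of a peak is given as the percent of its chromosome's peaks in that list up to and including its row, and a low number is an early row. The labels do not say what the order means. Early rows being the strong peaks is an inference. Over all 26976 shared KO peaks paired with their WT peak, the place in the KO list minus the place in the WT list had a median of 2.53 points. Of these pairs 26.7% stood at least 10 points later in the KO list and 13.4% at least 10 points earlier, and 61.9% stood later by any amount. These shares are over all places in the lists. WT-only peaks made up 70.5% of the last 10% of the WT list, and KO-only peaks 55.5% of the last 10% of the KO list. The usual difference can therefore vary with place, and the pairs below were not matched by place.

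Irf4 spans chr13:30749233-30766981. The pair at its start, chr13:30749152-30749344 in the KO list and chr13:30749120-30749338 in the WT list, stood at 29.4% of the KO list and at 23.8% of the WT list. Within the gene a pair 11.2 kb after the start, chr13:30760341-30760533 in the KO list, stood at 41.3% in the KO list and at 24.5% in the WT list, 16.8 points later in KO. A pair 12.1 kb after the start stood at 52.6% and at 44.5% of the KO and WT lists. In each of these the KO peak held the later place.

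The pair at the far end of Irf4 stood at 57.3% of the KO list and 53.6% of the WT list. Its KO midpoint fell inside the gene and its WT midpoint 14 bp beyond it. A pair about 11 kb past the gene stood at 68.4% and 67.3%. All 5 Irf4 pairs thus stood later in the KO list, by 1.12 to 16.8 points with a median of 5.56. Only the pair 11.2 kb into the gene passed 10 points, and 14.5% of all pairs were later by more than that pair. The pair at the far end, 3.62 points later, and the pair past the gene, 1.12 points later, were exceeded by 45.7% and 56.1% of all pairs. The KO-only peak, chr13:30776096-30776288, lay 9.21 kb past the gene at 90.1% of the KO list, in a 10% step of the list where 55.5% of peaks were KO-only. The WT-only peak, chr13:30742515-30742733, lay 6.61 kb before the start at 49.9% of the WT list. In its 10% step 20.1% of peaks were WT-only, and the nearest KO peak was the one at the Irf4 start, 6.42 kb away.

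Prdm1 spans chr10:44437174-44528558, with the listed start inside this span. The pair at that start overlapped by 58 bp and stood at 9.54% of the KO list and 13.7% of the WT list, the earliest place of any Prdm1 peak in the KO list. A pair at the upper end of the annotated gene, 70.7 kb before the start, stood at 14.1% and 13.6%. It counts as shared on an overlap of 6 bp, between chr10:44529326-44529518 in the KO list and chr10:44529513-44529731 in the WT list. Of all shared KO peaks, 1.68% overlapped by fewer than 20 bp, and the median overlap was 175 bp.

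A pair 24.7 kb before the start of Prdm1 stood at 48.3% of the KO list and 46.2% of the WT list, and one 80.4 kb before it at 98.2% and 91.4%. The pair 29.1 kb after the start, past the gene's lower end (chr10:44429510-44429702 in the KO list, chr10:44429445-44429663 in the WT list), stood at 37.8% of the KO list and at 57.1% of the WT list. Of the 14 pairs at these genes it stood furthest ahead in the KO list, by 19.3 points, and 6.06% of all pairs stood further ahead. Of the 5 Prdm1 pairs 3 stood later in the KO list, with a median of 0.42 points.

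All 6 genotype-specific peaks of Prdm1 lay on the transcribed side of the start, in or past the lower part of the gene. A KO-only peak, chr10:44448005-44448197, and a WT-only peak, chr10:44448304-44448522, stood 106 bp apart, 10.6 and 10.3 kb after the start. They held 37.3% of the KO list and 29.5% of the WT list. They are counted as specific although they are near neighbours. A WT-only peak 14.7 kb after the start, chr10:44443905-44444123, had no KO peak within 3.88 kb and stood at 43.2% of the WT list, where 20.1% of the step were WT-only.

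Towards Atg5, a gene of autophagy, the KO-only peak given to Prdm1 past its lower end was chr10:44420216-44420408, at 73.1% of the KO list. The WT-only peaks given to Prdm1 there, chr10:44416443-44416661 and chr10:44403612-44403830, stood at 99.8% and 83.5% of the WT list, in steps where 70.5% and 59.1% of peaks were WT-only. Of the 4 WT-only peaks of Prdm1, then, 2 had places below 50% and 2 stood near the end.

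Bcl6 spans chr16:23965050-23988866. The pair at its main start, chr16:23988658-23988850 in the KO list and chr16:23988653-23988871 in the WT list, stood at 10.6% of the KO list and 6.85% of the WT list. The pair 6.29 kb into the gene stood at 26.6% and 20.4%, and the pair past the gene's end, 26.2 kb after the start, at 88.1% and 80.5%. The pair 8.57 kb before the start stood at 44.7% and 48.9%. Of these 4 pairs 3 stood later in the KO list, with a median of 4.97 points, and the largest difference was 7.6 points. The KO-only peak, chr16:23998007-23998199, lay 398 bp from the WT peak of that last pair, at 68% of the KO list. The WT-only peaks, chr16:24051103-24051321 and chr16:23953788-23954006, stood at 70.3% and 98.9% of the WT list, 62.4 kb before and 35 kb after the start.

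**Figure D2:**
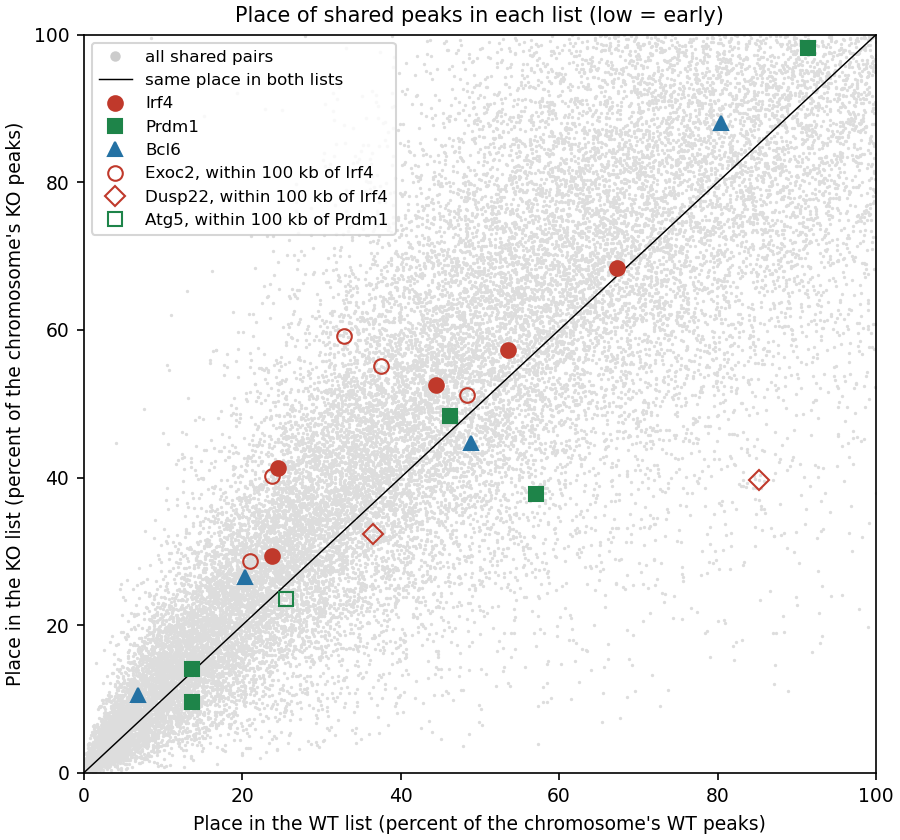
Place of each shared pair in the KO list (y axis) and in the WT list (x axis), in percent of the chromosome's peaks, with all 26976 pairs as grey dots and the line of equal places. The 5 Irf4 pairs lie above the line, and the Prdm1 pair at 37.8% and 57.1% lies furthest below it among the pairs of the 3 genes. Open symbols are pairs within 100 kb given to a neighbour: the 5 of Exoc2 lie above the line, and the 2 of Dusp22, one at 39.7% and 85.2%, and the 1 of Atg5 lie below it.

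Among the 14 pairs of the 3 genes, 11 stood later in the KO list (78.6%, against 61.9% of all pairs), 1 by at least 10 points, and 1 stood at least 10 points earlier. Peaks near the end of a list were more often specific everywhere: the KO-only share was 4.19% in the first 10% and 55.5% in the last 10% of the KO list, and the WT-only share was 3.36% and 70.5% in those steps of the WT list. The specific peaks in front of their list were thus the less usual ones, and these were at Prdm1 (the pair 106 bp apart and the WT-only peak 14.7 kb after the start) and at Irf4 (the WT-only peak 6.61 kb before the start).

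**Figure D3:**
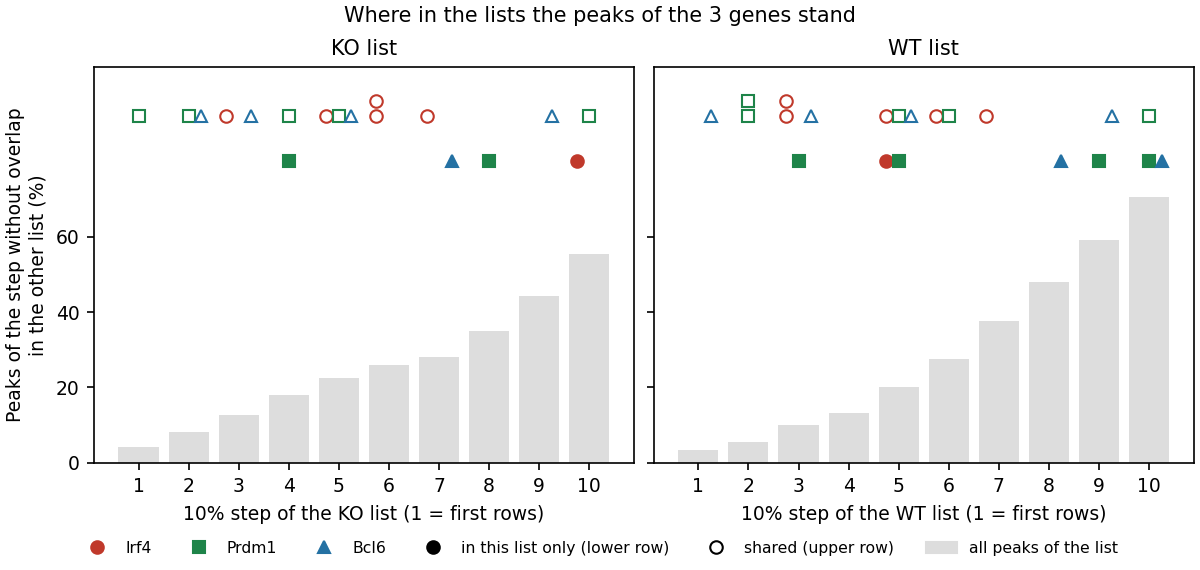
Percent of peaks without overlap in the other list (y axis, bars) by 10% step of the KO list (left) and of the WT list (right), with the peaks of Irf4, Prdm1 and Bcl6 drawn above by step, filled where specific to that list and open where shared. The height of these symbols carries no value. In the KO list 1 filled symbol stands in the first 5 steps, and in the WT list 3 do.

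How far apart the last peak inside the rule and the first outside it lay differed by gene and side. On the lower side of Prdm1 they were 33.5 and 36.5 kb from the gene. On the upper side of Bcl6 they were 62.3 and 104 kb from it. At Irf4 the first pair outside, 19.4 kb past the gene, went to Exoc2, a subunit of the exocyst, and stood at 40.2% of the KO list and 23.7% of the WT list. At Prdm1 the nearest peaks outside were a KO-only and a WT-only peak 295 bp apart, given to Atg5, at 77.6% of the KO list and 85.7% of the WT list. On the other side the first was a KO-only peak 102 kb past the gene's upper end. At Bcl6 the first outside on the lower side was a WT-only peak 90.6 kb after the start, chr16:23898142-23898360, given to Sst, the somatostatin gene, at 82.6% of the WT list. On the upper side it was a WT-only peak 104 kb past the gene, at 62.5% of the WT list. The peaks just inside were the Irf4 pair about 11 kb past the gene, the WT-only peak of Prdm1 at 83.5% and the WT-only peak of Bcl6 at 70.3%.

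Genes with the same counts were common. With 1 KO-only, 5 shared and 1 WT-only peaks, 37 other genes matched Irf4, and the nearest to it in length were Zfp386, Dapl1 and Pdcd1, the last encoding the inhibitory receptor PD-1. For Prdm1 10 genes matched, with Rasa2, Pxylp1 and Map7 nearest in length, and for Bcl6 36 genes, with Egln3, Tnfrsf9 and Fem1c. The likeness is one of counts over 2 lists and says no more than that. Of the nearest protein-coding neighbours, Dusp22 (38 kb from Irf4) had 1 KO-only, 2 shared and 1 WT-only peaks and Exoc2 (22.5 kb) had 2, 11 and 5. Atg5 (72.9 kb from Prdm1) had 1, 2 and 3, and Prep, at 539 kb, had 4, 5 and 4. Lpp, 404 kb from Bcl6, had 2, 14 and 9, and Rtp2, at 34.3 kb, had 0 in either list.

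Lists of genes that work with these factors were counted in the same way. Over all protein-coding genes 45.4% of genotype-specific peaks were KO-only (8515 KO-only against 10254 WT-only). Of genes with a peak, 20.2% had more KO-only and 26.8% more WT-only peaks. The median gene of all those tested had a difference of 0, as did the median member of each list below except the follicular one.

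The IRF family had 13 KO-only, 26 shared and 9 WT-only peaks over 9 genes, with more KO-only peaks at 3 and more WT-only peaks at 2. Its KO-only share was 59.1% (36.4 to 79.3%), an interval that includes the 45.4% of all genes. Irf1, a mediator of interferon responses, had 3 KO-only, 4 shared and 0 WT-only peaks, and Irf2, its antagonist, had 6, 5 and 4. Partners of IRF4 had 26 KO-only, 65 shared and 16 WT-only peaks over 16 genes, with more KO-only peaks at 7 genes and more WT-only peaks at 2. The KO-only share of the partners was 61.9% (45.6 to 76.4%), an interval that begins just past the 45.4% of all genes. In 6 of 9 alternatives the list's interval included the share of all genes under the same setting. Nfatc1, a factor of calcium signalling, had 6 KO-only against 4 WT-only peaks, its relative Nfatc2 had 5 and 0, and Ikzf1, encoding Ikaros, had 4 and 0. Ets1 had 2 KO-only against 5 WT-only peaks, and Stat3, which relays IL-6 and IL-21 signals, had 0 and 2. Batf itself had 2 KO-only, 2 shared and 1 WT-only peaks. The B cell and myeloid factors in this list added little to its counts: Spi1 had 1 KO-only and 1 WT-only peak, and Spib 0 and 0. B cell markers had 7 KO-only and 3 WT-only peaks (70.0% KO-only, 34.8 to 93.3%, an interval that includes the 45.4% of all genes). Natural killer markers had 8 and 4 (66.7%, 34.9 to 90.1%), Treg markers 13 and 10 (56.5%, 34.5 to 76.8%), and T cell markers 6 and 8 (42.9%, 17.7 to 71.1%). Each of these intervals includes the 45.4% too. The part of such cells was not tested.

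BCL6 corepressors and related BTB-POZ genes had 22 KO-only against 20 WT-only peaks over 16 genes (52.4% KO-only, 36.4 to 68.0%). Hdac7, a class IIa deacetylase, had 2 and 0. Zbtb7b, encoding ThPOK of the CD4 lineage, had 0 KO-only against 2 WT-only peaks. The Prdm family with cofactors of Blimp-1 had 18 and 19 over 16 genes (48.6% KO-only, 31.9 to 65.6%). Both intervals include the 45.4% of all genes. Prdm11 had 4 KO-only against 0 WT-only peaks, Prdm2 had 3 and 1, and Hdac2 had 0 and 2, beside the 2 and 4 of Prdm1.

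Follicular genes had 29 KO-only, 103 shared and 44 WT-only peaks over 19 genes, with more KO-only peaks at 3 genes and more WT-only peaks at 12, and a median difference of -1 peak. Cxcr5, the receptor that guides cells into follicles, and Btla, an inhibitory receptor, each had 5 shared peaks, 0 KO-only and 2 WT-only. Cd40lg, the CD40 ligand gene, had 1 KO-only against 4 WT-only peaks. These 19 genes held 132 KO and 147 WT peaks, where the median gene with a peak had 2 in each list. Genes with few peaks can tie more easily, so the shares over all genes are no like background for the 3 and 12. The KO-only share of the list, 39.7% (28.5 to 51.9%), had an interval that includes the 45.4% of all genes.

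Effector Treg genes had 21 KO-only, 75 shared and 27 WT-only peaks over 20 genes, with more KO-only peaks at 4 and more WT-only peaks at 8. Klrg1, a receptor of effector cells, had 2 KO-only against 0 WT-only peaks. Tigit, an inhibitory receptor, had 2 and 4, and Areg, a tissue repair factor of Treg cells, and the chemokine receptor gene Ccr2 each had 0 and 2. Genes of upstream signals had 32 and 50 over 21 genes, of which Bach2, a repressor of Prdm1, held 5 and 16. In that list Nfkb1, an NF-kB subunit gene, had 3 KO-only against 6 WT-only peaks, Rel had 0 and 3, and Tbx21, encoding T-bet, had 4 and 1. Genes that Blimp-1 is known to repress had 16 and 28 over 11 genes, again with Bach2. S1pr1, the egress receptor, had 2 and 4 in that list, and Pax5, the B lineage factor, had 2 and 0. Bach2 alone held 16 of the 50 WT-only peaks of the upstream list and 16 of the 28 of the Blimp-1 list. The KO-only shares of the effector, upstream and Blimp-1 lists were 43.8% (29.5 to 58.8%), 39.0% (28.4 to 50.4%) and 36.4% (22.4 to 52.2%). These intervals include the 45.4% of all genes.

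**Figure D4:**
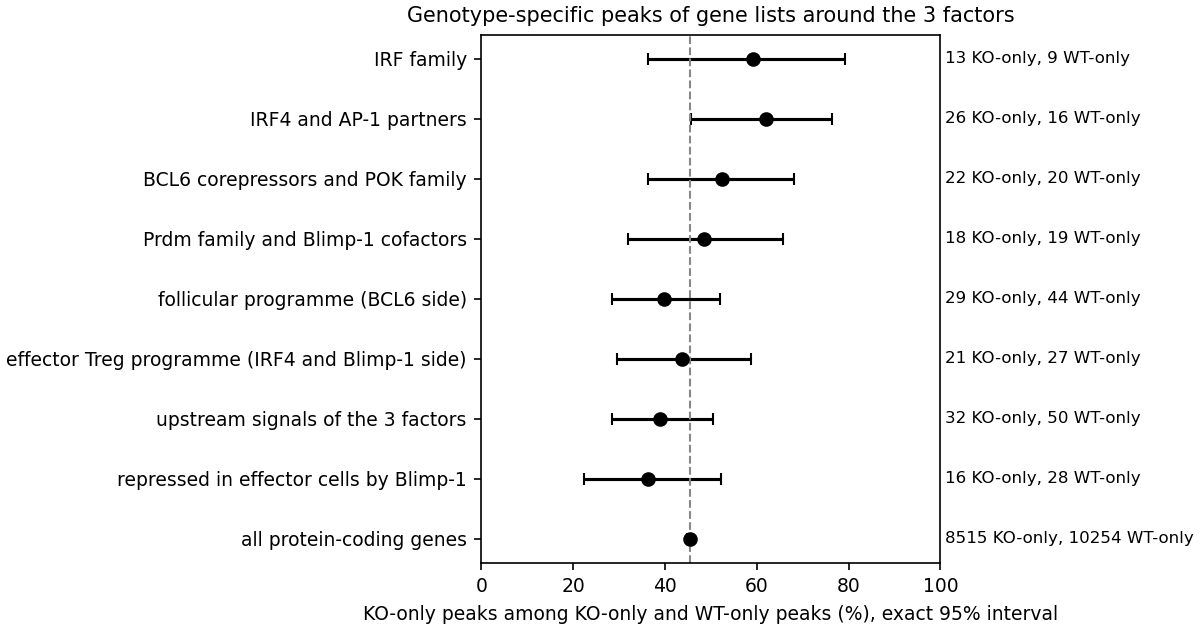
KO-only peaks as a percent of KO-only and WT-only peaks (x axis) for 8 gene lists and for all protein-coding genes, with exact 95% intervals that cover counting error only and the dashed line at the 45.4% of all genes. The interval of the IRF4 partners, from 45.6%, begins just past that line, which it did not do in 6 of 9 alternatives, each set against its own share of all genes, and the other 7 lists' intervals include it. Lists share genes, and Irf4, Prdm1 or Bcl6 belong to 3 of them.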

How the data were processed

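ATAC-seq peaks of 3 KO and 3 WT Treg samples, from 100000 cells each, were used as deposited. By the submitters' processing notes HOMER 4.10.1, HISAT2 2.1.0, deepTools, SAMtools 1.3, Trim Galore 0.4.2, FastQC and cutadapt 1.12 were used, on build mm10. What each did, any shift for transposase insertion, the peak threshold and how replicates were joined: none is given in the sources used here. The authors deposited a score of 1 with every peak. The other deposited values are each peak's start and end, with no signal, and they are given here counted from 1. Nearly all KO peaks were 193 bp wide (36176) and WT peaks 219 bp (38249).

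Overlaps, assignment and intervals were computed with scipy 1.17.1, pandas 2.3.3 and numpy 2.4.6 under Python 3.11.15 (plots: matplotlib 3.10.9). The overlap and assignment steps were tested on 787 simulated peaks, with 0 differences from the known answers and, for overlap alone, 0 from bedtools 2.31.1. Very short overlaps, very short gaps and overlapping genes were not simulated. A midpoint inside several genes went to the shortest of them. Genes came from RefSeq (GRCm38.p6), transcription starts and promoter sequences from its promoter table, which holds 79.9% of the 21887 protein-coding genes. Exons and introns were not used here, and no peak sequence outside these windows was read, so motifs in peaks outside them were not counted.

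The members and gene lists were chosen with earlier results of these data known. Beside the 3 genes, names follow a rule: the nearest neighbours, list members with a difference of at least 2 peaks, up to 3 a direction, and 3 genes of like counts. Some genes that the rule names are not reported here. Batf was named after its values were seen, as were the single B cell, myeloid and natural killer marker genes and those of the last observation. No test across samples was possible with 1 list a group.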

Additional observations from a re-analysis of the deposited data

How the results depend on the processing

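No paired analysis was possible because each group has 1 joined list, so no value belongs to a replicate, and leaving out a replicate was not possible for the same reason. Motifs inside peaks, whole or in their middle, were not run because no genome was used. The shared percentage of the 3 genes was 66.7% to 90% of KO peaks and 57.1% to 77.8% of WT peaks over the alternatives run. KO-only peaks of the 3 genes numbered 2 when peaks within 500 bp counted as shared, and 7 by nearest transcription start. With all peaks within 100 kb of the genes there were 7 KO-only, 22 shared and 12 WT-only peaks. Among peaks with places up to 50%, ordered within chromosomes or over all of them (over all was added after seeing the data), there were 1 KO-only, 9 shared KO, 9 shared WT and 3 WT-only peaks. With midpoints inside the annotated genes alone, here including those near a gene end, there were 1 KO-only, 8 shared KO, 6 shared WT and 2 WT-only peaks. The shared counts differ because WT midpoints of Irf4 pairs lay 4 and 14 bp outside the gene while their KO midpoints lay inside. These settings take in more or fewer peaks by construction. WT-only peaks numbered 4 with a reach of 20 kb. At Prdm1, asking for an overlap of 50% of the shorter peak gave 4 KO-only, 3 shared and 6 WT-only peaks, since the pairs overlapping by 58 bp and 6 bp then count as specific. The IRF4 partner list was 78.6% KO-only among such early peaks by either order (11 KO-only, 3 WT-only, interval 49.2 to 95.3%), where all genes gave 54.7% within chromosomes and 54.6% over all. With all peaks within 100 kb of its genes it was 54.2% (45 KO-only, 38 WT-only, 42.9 to 65.2%). In 6 of 9 alternatives its interval included that alternative's share over all genes. The setting with all peaks within 100 kb is not among the 9, since its share over all genes was not computed. The 2 orders of early peaks gave the same counts, so the 9 are not separate checks. An interval also widens where a setting keeps fewer peaks. The median change of place at Prdm1 was 0.73 points, against 0.42, by row order over all chromosomes, an alternative chosen after seeing the data, and 14 of 14 pairs kept their direction. Depth per sample is unknown and limits every count.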

Other observations

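The peaks next to Irf4 that the rule gave to Exoc2 shared the direction of the Irf4 pairs. Within 100 kb of Irf4, 5 shared pairs belonged to Exoc2, at 28.7% to 59.2% of the KO list and 21.0% to 48.4% of the WT list, and each stood later in the KO list, by 2.87 to 26.4 points with a median of 16.5. The pair with the largest difference, chr13:30831459-30831651 in the KO list and 82.3 kb after the Irf4 start, stood at 59.2% of the KO list and 32.8% of the WT list, and 5.7% of all pairs were later by more. With the 5 Irf4 pairs, 10 of 10 stood later in the KO list and 4 of 10 by at least 10 points, where 61.9% and 26.7% of all pairs, at any place in the lists, did. Of these 4 pairs, the Exoc2 pair that stood 17.6 points later counts as shared on an overlap of 20 bp. On the other side of Irf4, also within 100 kb, lies Dusp22, a phosphatase gene. Both of the Dusp22 pairs stood earlier in the KO list, and they are not among the 10. One of them, chr13:30681944-30682136 in the KO list, stood at 39.7% of the KO list and 85.2% of the WT list, and 0.638% of all pairs stood further ahead. The grouping of these pairs was made after their values were seen, and the rows carry no height, so the size of any change in signal is unknown.

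Between 100 and 300 kb past the upper end of Bcl6, in the interval before Lpp, a window chosen after seeing the data, the KO list and the WT list each had 12 peaks, 9 shared and 3 specific to the list. Their median place was 57.3% of the KO list and 60.4% of the WT list. The earliest, chr16:24151281-24151473 in the KO list and chr16:24151393-24151611 in the WT list, stood at 27.6% and 27.7%.

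Of the plasma cell genes looked up beside Irf4 and Prdm1, Xbp1, a factor of secretory cells, had 4 KO-only, 2 shared and 2 WT-only peaks, Sdc1 had 2, 1 and 2, Tnfrsf17 had 1, 0 and 0, and Jchain had 0, 1 and 0.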
